A study of Homo sapiens with 12 samples.

Results

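Chromatin modifiers and remodelers were examined in m7G immunoprecipitation data as the peak regions lying in protein-coding genes whose symbol begins with KDM, KMT, HDAC, SMARC, ARID or SETD, or with KAT, CHD or BRD and a digit. The rule used gene names and positions alone, on the GRCh38 RefSeq gene bodies. Of 102 such genes, 63 held a peak, and these held 170 of the 9958 deposited peak regions. The cells were THP-1, a human monocytic leukemia line, made adherent with the phorbol ester PMA at 100 ng/ml for 48 hours in every group. The control is named NC, and the knockdown, KD, carries a short hairpin against METTL1, the catalytic subunit of an m7G methyltransferase. From each, 3 input libraries (IN, taken as input from the library names) and 3 immunoprecipitated libraries (IP) were made from polyadenylated RNA. Whether the hairpin line is 1 clone or a pool is not given in the sources used here, and nothing in the labels says that the libraries came from separate cultures. P-values therefore measure the spread between these libraries, which may be technical.

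Chromatin regulators add, remove or read chemical marks on histones, or move nucleosomes along DNA with the energy of ATP. In macrophages, deacetylases, demethylases and SWI/SNF remodelers are known for setting which inflammatory genes can be transcribed. 7-methylguanosine (m7G) caps the first base of mRNA, and it also occurs inside tRNA and mRNA, where METTL1 with its partner WDR4 can place it. An antibody to m7G can therefore capture fragments from the 5′ end of a transcript as well as fragments with an internal mark, and these data do not separate the kinds.

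By role, the 63 genes comprised 6 of 11 histone deacetylases, 4 of 8 KAT acetyltransferases, 12 of 20 KDM demethylases, 12 of 20 KMT and SETD methyltransferases, 15 of 23 SMARC and ARID genes, 9 of 11 CHD genes and 5 of 9 BRD genes. The SMARC and ARID genes include subunits of SWI/SNF complexes, but not every gene of this group encodes such a subunit. ARID3 and ARID5 proteins, for example, bind DNA and are no SWI/SNF subunits. CHD9NB, a neighbor of CHD9, entered by its symbol alone. Genes with no peak included HDAC1, HDAC3, KAT7, KDM6A, KMT2C, SETDB1, SMARCA5, SMARCB1 and BRD3. The read filter left 95 regions of 41 genes for testing, which is 55.9% of the member regions, against 51.3% of all regions. The other 75 held between 4 and 84 reads over the 12 libraries (median 26), and 22 genes, among them HDAC2, HDAC4, KAT5, KDM4A, SETD2, KMT2A and CHD1, had untested regions alone. Many regions overlap one another, since both peak sets were listed, so the 170 regions form 128 clusters and the 95 tested ones 62. Of the 170 regions, 10 overlap several coding genes and 5 lie opposite to a listed gene strand, 3 of these in SMARCD3, so their reads may belong to another transcript.

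Each IN library had 907024 to 1105477 reads inside peaks, and each IP library 1476384 to 1888972. Chromatin genes took 2.5% to 3.08% of these in IN and 1.86% to 2.26% in IP. METTL1 had 0 peaks, so the targeted gene could not be checked. Markers of the labelled cell type were incomplete: 12 of 24 monocyte and macrophage markers had no peak, among them CD14, CSF1R and PTPRC. Their summed level in CPM, read counts scaled to a common library size, was 988 to 1040 in NC IN and 1780 to 1890 in KD IN. A list of 16 genes typical of the HEK293 kidney line, written with earlier results of these data known, summed to 12900 to 13600 CPM in NC IN and 1330 to 1590 CPM in KD IN. In KD IN nearly all of this was 1 gene, TCEAL9, at 1290 to 1550 CPM. The rest of the list summed to 33.5 to 43.5 CPM, against 9510 to 10500 CPM in NC IN, where NEFM alone gave 7380 to 7960 CPM. Of the list's 22 tested regions, 19 were lower in KD IN and 0 higher, and LIN28B, KRT18, MAP9 and PNMA8A were at 0 in every KD IN library. ZIC2 went the other way, with 21 reads in NC IN and 39 in KD IN, and AMOTL1 had only 5 and 2. Fibroblast markers summed to 31.6 to 60.1 CPM in NC IN and 25 to 37.6 CPM in KD IN, and 0 of 10 erythroid and lymphoid markers had a peak. Since the HEK293 list was written with earlier results known, the direction of its difference was partly fixed in advance and is no separate evidence. The NC and KD groups differ in the levels of these listed genes as well as in the hairpin. The parts of the 2 in any difference between KD and NC below cannot be told apart.

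Member peaks at transcript starts are shown first, since the cap lies there. A peak overlapped the first 50 bases from an annotated RefSeq start in 18 cases, in 14 genes: ARID1A, ARID1B, ARID5A, ARID5B, CHD1, HDAC6, HDAC8, KDM1A, KDM2A, KDM3A, KDM3B, KDM5C, KMT5B and SETD1A, the last reaching over the start by 19 bases. For 5 of these genes the sequence around the start (RefSeq, GRCh38.p14) is printed 5′ to 3′ on the strand of the gene, with 50 bases before the start in lower case and the first 30 transcribed bases in capitals. HDAC8, KDM1A and ARID1A had start peaks that were higher in IP than in input in both NC and KD, KDM5C had start peaks lower in IP in NC, and CHD1 had a peak whose outer edge is the annotated first base.
HDAC8: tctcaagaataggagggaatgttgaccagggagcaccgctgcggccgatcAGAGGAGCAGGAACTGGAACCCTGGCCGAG
KDM1A: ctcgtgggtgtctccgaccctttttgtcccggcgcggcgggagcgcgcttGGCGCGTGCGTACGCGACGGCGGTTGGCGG
ARID1A: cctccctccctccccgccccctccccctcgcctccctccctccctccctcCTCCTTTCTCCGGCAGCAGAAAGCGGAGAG
KDM5C: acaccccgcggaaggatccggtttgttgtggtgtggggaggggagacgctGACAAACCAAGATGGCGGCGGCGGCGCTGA
CHD1: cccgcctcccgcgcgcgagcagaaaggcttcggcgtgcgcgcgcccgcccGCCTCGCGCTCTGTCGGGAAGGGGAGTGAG

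The annotated start bases are chrX:72572843 (HDAC8), chr1:23019468 (KDM1A), chr1:26696015 (ARID1A), chrX:53225207 (KDM5C) and chr5:98929007 (CHD1). In the windows from 250 bases before to 50 bases after each start, 87 of the 102 genes had an entry, with 141 windows in all. Searched on both strands, the TATA box letters TATAAA were in 2 of the 141 member windows, and in 9.47% of the windows of all coding genes. CCAAT was in 27.7% of member windows and 34.7% of all, and the GC box letters GGGCGG were in 64.5% of member windows and 56.3% of all. Median GC content was 66.0% in the member windows and 62.3% in all. Of the printed genes, HDAC8 and KDM5C held none of the motifs, while the windows of ARID1A and CHD1 each held GGGCGG 3 times.

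**Figure D1:**
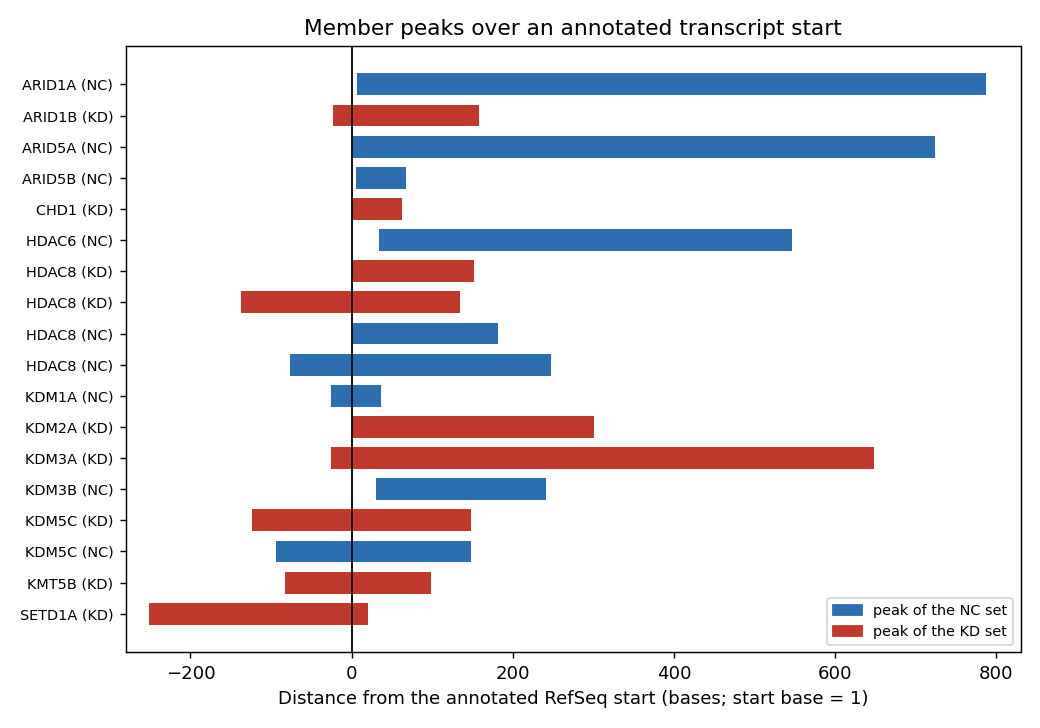
Extent of the 18 member peaks that overlap the first bases from an annotated start, by gene and peak set (blue NC, red KD). The horizontal axis is the distance in bases from the annotated start (base 1, vertical line), and for KDM3A, with 2 annotated starts, it is the upstream one. Both kinds of edge occur: 2 HDAC8 peaks and the CHD1 peak begin on base 1, while other HDAC8 peaks reach up to 137 bases before it.

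The comparison of IP with input asks where m7G antibody signal stood above or below the average tested region. In NC, 17 member regions of 10 genes were higher in IP and 33 regions of 15 genes were lower, so 50 of 95 (52.6%) passed adjusted p under 0.05, beside 46.7% of all tested regions (22.7% higher and 24.0% lower). KD gave the same numbers, 17 regions higher and 33 lower, beside 44.9% of all tested regions (23.5% higher and 21.4% lower). The same call in both groups was given to 14 higher regions of 8 genes and 28 lower regions of 12 genes, and 0 regions were called in opposite directions. The median log2 IP over input of the members was -0.09 in NC and -0.07 in KD, beside 0.13 and 0.23 over all tested regions. Scaling by library size alone moved the median of all regions to 0.42 in NC and 0.40 in KD, and the split of the members to 22 higher and 27 lower in NC and 20 higher and 27 lower in KD. When regions were limited to the 50% of peaks with the highest deposited fold, 23 member regions were tested. Of these, 8 were called in NC and 1 in KD, and the share called over all regions of that subset is not given here. Here and below, scaling in this subset was computed anew on those peaks. A log2 of 0 there stands for the average of peaks chosen for high IP over input, so its values and calls have another reference. The libraries of IP and input did not overlap in 61 member regions in NC and 60 in KD, beside 57.8% and 56.6% of all tested regions.

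Histone deacetylases, which remove acetyl groups from lysine, had the largest share of regions above input. Of 12 tested regions, 8 were higher in IP in NC and 0 lower, and in KD 7 were higher and 2 lower, with a median log2 of 1.93 in NC and 1.48 in KD. The called higher regions lay at the 5′ end of HDAC5, HDAC6 and HDAC8, 3 of the 4 deacetylase genes tested. In NC the 8 regions overlap within each gene and share reads, so the share and the median count some reads more than once. HDAC8 encodes a class I deacetylase of chromosome X, and its start region (chrX:72572597-72572921, minus strand) measured 34.6, 19.0 and 20.8 CPM in NC IN and 153, 159 and 126 CPM in NC IP. In KD it measured 27.4, 13.4 and 16.3 CPM in IN and 49.6, 53.8 and 58.4 CPM in IP. Every IP library was above every input library in both groups. IP over input was 5.8-fold in NC (log2 2.54, SE 0.25, adjusted p = 1.5e-08, edgeR) and 2.82-fold in KD (log2 1.5, SE 0.27, adjusted p = 7.7e-05). The other HDAC8 start peaks overlap this one and share its reads. A region at the 3′ end of HDAC8 (chrX:72329725-72329876) did not pass in either group, with log2 -0.35 in NC and 0.45 in KD.

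HDAC6 encodes a mainly cytoplasmic deacetylase that acts on tubulin. Its 5′ region (chrX:48802100-48802611, plus strand, from base 34 of the annotated start) measured 6.29, 15.2 and 4.62 CPM in NC IN and 47.2, 34.9 and 38.4 CPM in NC IP. In KD it measured 10.2, 15.3 and 19.6 CPM in IN and 19.2, 21.9 and 23.0 CPM in IP. IP and input did not overlap in NC, while in KD the lowest IP library lay under the highest input library. The log2 IP over input was 2.23 in NC (SE 0.43, adjusted p = 0.00013) and 0.51 in KD (SE 0.40, adjusted p = 0.30). Without NC IN replicate 2 the NC value was 2.90. A shorter peak within it (chrX:48802310-48802551) had a log2 of 3.19 in NC (adjusted p = 0.0013) and 2.58 in KD (adjusted p = 0.018), from 6 reads in NC IN and 4 in KD IN. Its KD call was lost without KD IN replicate 1 (log2 1.99, adjusted p = 0.077), KD IN replicate 2 (1.98, adjusted p = 0.082) or KD IP replicate 2 (2.37, adjusted p = 0.057). Without KD IN replicate 3, the only KD input library with reads, it was 6.59, and its NC value without NC IN replicate 3 was 4.20.

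HDAC5 encodes a class II deacetylase that shuttles between nucleus and cytoplasm. Its 5′ region (chr17:44123491-44123702, minus strand) measured 8.38, 5.05 and 16.2 CPM in NC IN and 35.5, 33.6 and 23.3 CPM in NC IP. In KD it measured 1.02, 6.69 and 4.35 CPM in IN and 18.7, 15.9 and 23.0 CPM in IP, again with no overlap. The log2 IP over input was 1.63 in NC (SE 0.48, adjusted p = 0.0071) and 2.21 in KD (SE 0.55, adjusted p = 0.002). Without NC IN replicate 3 the NC value was 2.22, and without KD IN replicate 2 the KD value was 2.80. A region further into HDAC5 (chr17:44087414-44088405), the deacetylase region with the highest mean level, had a log2 of -0.08 in NC and 0.02 in KD, neither of which passed. HDAC7, another class II deacetylase, had a 3′ region (chr12:47782751-47783050) that fell below input in KD (log2 -0.50, adjusted p = 0.026) and had -0.09 in NC (adjusted p = 0.71). That call was lost without KD IN replicate 1 or 2 or KD IP replicate 1 or 2 (log2 from -0.51 to -0.41, adjusted p from 0.06 to 0.12), and with library size alone the deacetylases had 7 regions higher and 0 lower. In the 50% of peaks with the highest deposited fold, HDAC5 lost its calls (0.89 in NC, adjusted p = 0.15, and 1.38 in KD, adjusted p = 0.062), HDAC8 its call in KD (0.64, adjusted p = 0.098), and the shorter HDAC6 peak its call in KD (1.77, adjusted p = 0.13).

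Among KDM demethylases, which remove methyl groups from histone lysines, 2 of 14 tested regions were higher and 4 lower in IP in NC, and 2 were higher and 3 lower in KD. The share called was 42.9% in NC and 35.7% in KD, beside 46.7% and 44.9% of all tested regions. KDM1A encodes the amine oxidase LSD1, and its start peak (chr1:23019442-23019503, plus strand) measured 10.5, 10.1 and 4.62 CPM in NC IN and 30.2, 27.4 and 18.3 CPM in NC IP. In KD it measured 3.05, 8.60 and 6.52 CPM in IN and 12.3, 20.4 and 15.5 CPM in IP. Input and IP libraries did not overlap in either group. The log2 was 1.58 in NC (SE 0.48, adjusted p = 0.0096) and 1.39 in KD (SE 0.51, adjusted p = 0.029). The KD call was lost without KD IN replicate 1 or 3 or KD IP replicate 2 (log2 from 1.03 to 1.39, adjusted p from 0.058 to 0.13).

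KDM5C, an X-linked demethylase of the JARID1 group, had signal in both directions. A region in the inner part of its gene body (chrX:53193031-53193841, minus strand) measured 416, 316 and 354 CPM in NC IN and 795, 629 and 705 CPM in NC IP. In KD it measured 281, 305 and 198 CPM in IN and 462, 462 and 517 CPM in IP. All IP libraries stood above all input libraries of their group, and the fold was 1.96 in NC (log2 0.97, SE 0.14, adjusted p = 2.9e-06) and 1.83 in KD (log2 0.87, SE 0.14, adjusted p = 1.7e-05). The start region of the same gene (chrX:53225061-53225332) was lower in IP in NC, at 302, 255 and 262 CPM in IN and 192, 188 and 203 CPM in IP (log2 -0.49, SE 0.13, adjusted p = 0.0024). In KD the start region had a log2 of -0.14 (adjusted p = 0.38). KDM5A, its autosomal relative, was lower in IP in NC toward its 3′ end (chr12:292818-292939, log2 -1.21, SE 0.22, adjusted p = 6.5e-05) and had -0.47 in KD (adjusted p = 0.09). KDM5B was called lower in KD (chr1:202729710-202729771, log2 -2.23, adjusted p = 0.014), a call lost without KD IP replicate 3 (-1.79, adjusted p = 0.07).

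For the KMT and SETD methyltransferases, which write histone methylation, 0 of 16 tested regions were higher and 3 lower in NC, and 3 were higher and 3 lower in KD. The share called was 18.8% in NC and 37.5% in KD, beside 46.7% and 44.9% of all tested regions. KMT2B, of the mixed-lineage leukemia family, was the best covered: a region near the start of its gene body (chr19:35720318-35720558, plus strand) measured 420, 428 and 425 CPM in NC IN and 233, 193 and 208 CPM in NC IP. It measured 464, 414 and 461 CPM in KD IN and 306, 263 and 253 CPM in KD IP. Both pairs of groups were fully separated, with log2 -1.0 in NC (SE 0.12, adjusted p = 1.9e-07) and -0.70 in KD (SE 0.12, adjusted p = 2.4e-05). SETD1A showed both directions in KD. Its 5′ region (chr16:30958046-30958879) had a log2 of 1.43 (adjusted p = 0.0085) and its inner region (chr16:30967035-30967565) -0.81 (adjusted p = 0.00092), while in NC the values were 0.70 (adjusted p = 0.16) and -0.86 (adjusted p = 0.00042). The 5′ call in KD was lost without KD IN replicate 1 or KD IP replicate 2 (log2 from 1.0 to 1.18, adjusted p from 0.061 to 0.064). The KMT2D region called higher in KD (chr12:49019754-49019994, log2 2.54, adjusted p = 0.019) lost its call without KD IN replicate 1 or 3 or KD IP replicate 2 (1.95 to 2.33, adjusted p from 0.062 to 0.083) and was 6.51 without KD IN replicate 2. KAT6A, the acetyltransferase with the only tested KAT regions, was lower in IP in both groups: its 3′ region had a log2 of -0.83 in NC (adjusted p = 1e-06) and -0.54 in KD (adjusted p = 0.00028).

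CHD remodelers are ATPases with a chromodomain, but the CHD group counted here also holds CHD9NB, which entered by its symbol alone. Regions of this group lay mostly below input. In NC, 12 of 20 tested regions were lower and 3 higher, and in KD 10 were lower and 2 higher. The higher regions came from 2 genes in NC, CHD9NB and CHD7, and from 1 gene in KD, CHD9NB. The CHD9NB regions overlap and share reads. CHD4, the ATPase of the NuRD complex, gave 8 of the 20. Its region of highest level (chr12:6581047-6581375, minus strand) measured 2950, 2950 and 3230 CPM in NC IN and 1730, 1920 and 1890 CPM in NC IP. In KD it measured 2480, 2390 and 2460 CPM in IN and 1580, 1590 and 1420 CPM in IP. All input libraries were above all IP libraries of their group, and IP stood 1.65-fold below input in NC (log2 -0.72, SE 0.09, adjusted p = 5.5e-07) with -0.68 in KD (adjusted p = 1.7e-06). Every one of the 8 tested CHD4 regions was called lower in both groups, but they overlap and share reads, forming 3 separate places in the gene. Over all CHD genes, the 12 regions lower in NC lay in 6 such places and the 10 lower in KD in 5. CHD3, a paralog in NuRD, had log2 -0.94 in NC (chr17:7907019-7907998, adjusted p = 5.6e-07) and -0.66 in KD (adjusted p = 8.4e-05). The 3′ region of CHD7 had -1.13 in NC (adjusted p = 3.4e-06) and -0.73 in KD (adjusted p = 0.0008). CHD8, called lower in NC (chr14:21391013-21391473, -1.37, adjusted p = 0.02), lost the call when any 1 of input replicates 1 and 2 or IP replicates 2 and 3 of NC was left out (-1.30 to -1.07, adjusted p from 0.051 to 0.10). It also lost it with library size alone (-1.06, adjusted p = 0.069) and with no count filter (-1.20, adjusted p = 0.061).

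The CHD regions above input were thinly covered in IN. CHD9NB (chr16:53042020-53042621) had 2 reads in NC IN and 51 in NC IP, a ratio of 13.1 after scaling with a 95% counting interval of 3.45 to 111. In KD it had 1 read in IN and 52 in IP, a ratio of 27.9 with an interval of 4.80 to 1120. The first-10% region of CHD7 had 1 read in NC IN and 42 in NC IP, a ratio of 21.6 with an interval of 3.67 to 873. In KD the same region had 15 and 30 reads and a log2 IP over input of 0.10 (adjusted p = 0.92). These intervals cover counting error only. With so few input reads, these regions passed the read filter through other libraries, among them the IP libraries where they are high. The size of these ratios was thus partly fixed in advance. Without the 1 library that held the input reads, the fitted log2 rose from 3.57 to 6.87 for CHD9NB in NC (NC IN replicate 2), from 4.5 to 6.73 in KD (KD IN replicate 1), and from 4.16 to 6.59 for CHD7 (NC IN replicate 3).

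Of the SMARC and ARID regions, 3 of 23 were higher and 7 lower in IP in NC, and 3 were higher and 8 lower in KD. The share called was 43.5% in NC and 47.8% in KD, near the 46.7% and 44.9% of all tested regions. Lower regions came from 3 genes in NC and 4 in KD, and higher regions from 2 genes in each group. The higher ones lay in the paralogs ARID1A and ARID1B, DNA-binding subunits of the BAF form of SWI/SNF. The ARID1A region from base 7 of its start (chr1:26696021-26696800, plus strand) measured 29.3, 11.4 and 26.6 CPM in NC IN and 79.6, 54.8 and 45.3 CPM in NC IP. It measured 9.14, 29.6 and 28.3 CPM in KD IN and 67.8, 67.7 and 75.1 CPM in KD IP. There was no overlap in either group, with log2 1.40 in NC (SE 0.35, adjusted p = 0.0018) and 1.65 in KD (SE 0.34, adjusted p = 0.0003). ARID1B (chr6:156778703-156779243) had 3 reads in NC IN against 45 in NC IP, a ratio of 7.71 with a counting interval of 2.47 to 38.8, and a log2 of 2.20 in KD (adjusted p = 0.013). An overlapping ARID1B peak of the NC set holds the same reads. ARID1B passed the read filter through IP libraries, where it is high. Its fitted NC call (log2 2.86, adjusted p = 0.019) was lost without input replicate 1, input replicate 2 or IP replicate 2 of NC (2.30 to 2.50, adjusted p from 0.059 to 0.072) and was 6.67 without NC IN replicate 3. Its KD call was lost without KD IN replicate 1 or KD IP replicate 2 (1.59 to 1.94, adjusted p from 0.06 to 0.068), and the value was 2.90 without KD IN replicate 2. In the 50% of peaks with the highest deposited fold, ARID1A (0.65 in NC, adjusted p = 0.13, and 0.81 in KD, adjusted p = 0.062) and ARID1B (2.15, adjusted p = 0.085, and 1.37, adjusted p = 0.13) lost their calls.

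SMARCA4 encodes the ATPase BRG1 and SMARCE1 the BAF57 subunit, and both stood below input. The 3′ region of SMARCA4 (chr19:11059760-11060100, plus strand) measured 741, 725 and 770 CPM in NC IN and 341, 297 and 344 CPM in NC IP. It measured 523, 526 and 691 CPM in KD IN and 283, 277 and 319 CPM in KD IP. IP and input were fully separated, by 2.28-fold in NC (log2 -1.19, SE 0.12, adjusted p = 1.6e-08) with log2 -0.98 in KD (adjusted p = 3.5e-07). SMARCE1 (chr17:40630686-40631684, minus strand) had log2 -0.84 in NC (SE 0.10, adjusted p = 2.1e-07) and -0.63 in KD (adjusted p = 1.4e-05). SMARCA2, the alternative ATPase BRM, was called lower at the threshold in both groups (chr9:2181601-2181662, -0.94, adjusted p = 0.042, and -0.83, adjusted p = 0.048). The NC call of SMARCA2 was lost in 10 of 12 fits that each left out 1 library, with -0.97 to -0.52 and adjusted p from 0.053 to 0.32, and the KD call in 7 of 12, with -0.91 to -0.66 and adjusted p from 0.057 to 0.18.

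BRD genes encode proteins with a bromodomain, which binds acetylated lysine. Of 8 tested regions, 1 was higher and 5 lower in NC, and 0 were higher and 5 lower in KD. BRD2, a reader of the BET group, measured 2340, 2600 and 2250 CPM in NC IN and 1120, 1350 and 1350 CPM in NC IP over chr6:32977562-32978228. It measured 2480, 2140 and 1850 CPM in KD IN and 1450, 1340 and 1150 CPM in KD IP, so input stood above IP in every library of both groups. The log2 was -0.91 in NC (SE 0.12, adjusted p = 5.3e-07) and -0.71 in KD (SE 0.12, adjusted p = 1.8e-05). BRD9, a subunit of the non-canonical BAF complex, had -0.91 in NC (chr5:891533-892215, adjusted p = 4.3e-06) and -0.54 in KD (adjusted p = 0.0016).

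**Figure D2:**
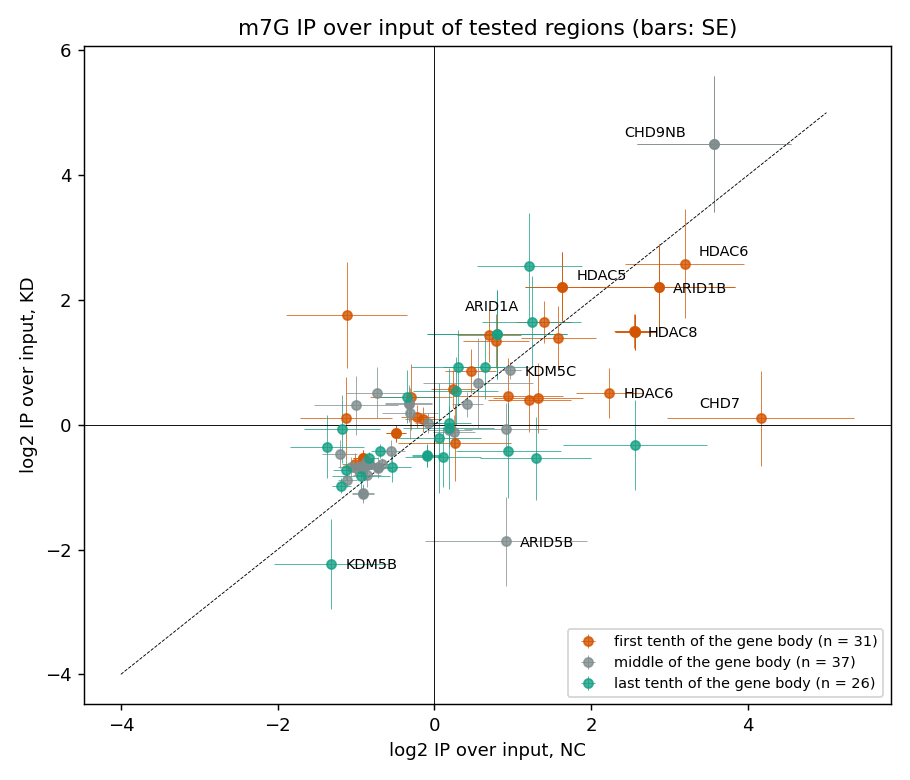
Log2 IP over input in NC (horizontal) and in KD (vertical) for the tested member regions, coloured by place in the gene body, with SE bars and a dashed line of equal values. A SMARCD3 region with 0 reads in KD IP is left out. First-tenth regions of HDAC5, HDAC6, HDAC8 and ARID1A lie at the upper right, while middle regions crowd the lower left.

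Place in the gene and input level went with these values. In the first 10% of the gene body, 13 of 31 member regions (41.9%) were higher and 5 (16.1%) lower in NC. Their median log2 was 0.94, beside 29.3% higher, 15.0% lower and a median of 0.49 over all first-10% regions. The 13 higher regions came from 7 genes, since overlapping regions such as those of HDAC8 share reads, while the 570 over all came from 341 genes. In the middle 80%, 22 of 37 (59.5%) were lower and 3 (8.11%) higher, with a median of -0.83. Over all middle regions 34.3% were lower and 16.9% higher, with a median of -0.21. The 22 lower regions came from 9 genes, and the 606 over all from 374. In the last 10%, 6 of 27 (22.2%) were lower and 1 higher, with a median of 0.11, beside 26.3% lower, 17.4% higher and -0.09 over all. In KD the first-10% members had a median of 0.57, close to the 0.52 of all first-10% regions, with 41.9% higher beside 29.3%. The KD medians were -0.63 in the middle, beside -0.03 over all, and -0.35 in the last 10%, beside 0.01. Of the 13 tested peaks over the first 50 bases of a start, 7 (53.8%) were higher in NC, with a median of 1.40, beside 32.3% and 0.57 for all such peaks in the table, and these 7 came from 4 genes because 4 of them overlap in HDAC8. Input level moved with place: of the 34 members among the highest input per kilobase, 29 (85.3%) were lower in IP in NC and 1 was higher, beside 60.2% lower over all such regions. Of the 30 members among the lowest, 11 (36.7%) were higher and 1 lower, a share near the 39.4% higher over all low-input regions. Within the low-input members, 8 of 13 first-10% regions were higher in NC against 3 of 17 others. The input classes use the same input counts as the IP over input ratio. Calls of lower at high input and of higher at low input were thus partly fixed in advance and are no separate evidence. The part of the input level in these counts was not tested further.

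**Figure D3:**
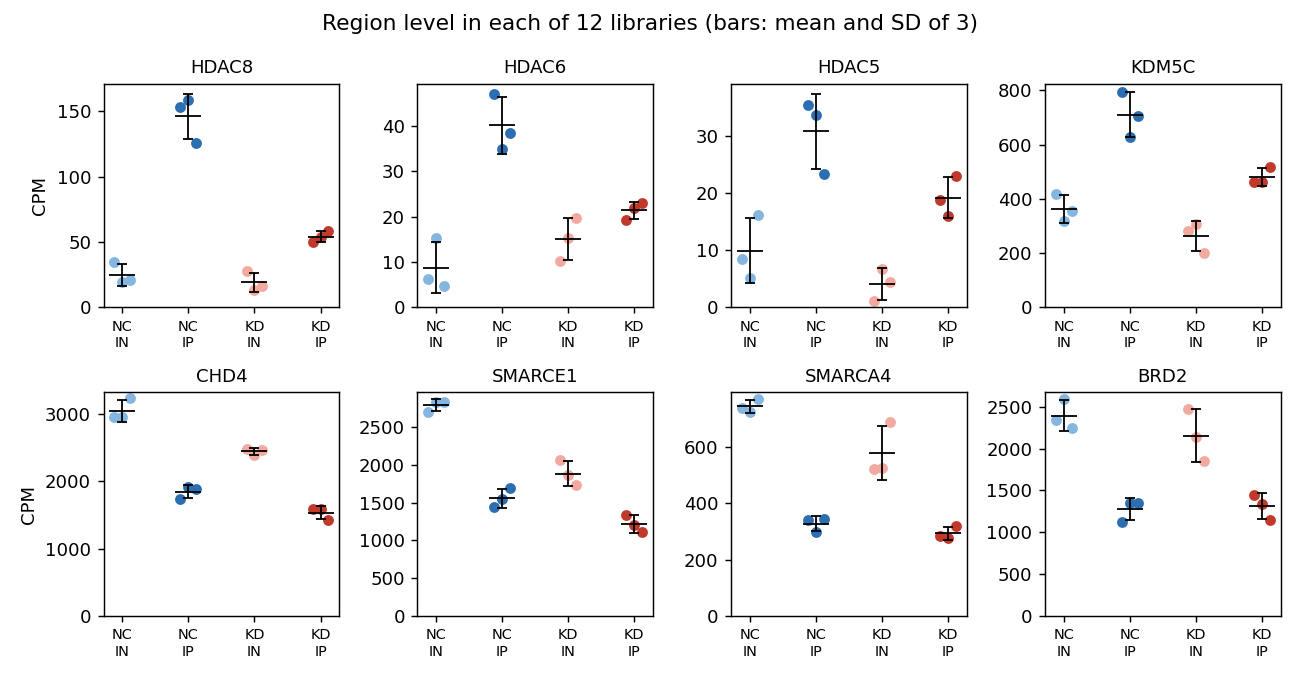
CPM of 8 member regions in each of the 12 libraries, by group, with mean and SD of 3 libraries in black and vertical axes from 0. HDAC8, HDAC6 and HDAC5 are 5′ regions with IP above input in NC, KDM5C is the inner region, and CHD4, SMARCE1, SMARCA4 and BRD2 have IP below input in both groups.

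Whether the knockdown changed IP relative to input was tested as the difference of the differences. With edgeR, 0 of 95 member regions passed, as did 0 of 5113 regions in all (0.0%), and 12 member regions had an unadjusted p under 0.05, beside 610 of all. DESeq2 called 0 members, with 11 at an unadjusted p under 0.05, and over all regions it called 8 higher and 13 lower. The smallest adjusted p among the members was 0.26, for the HDAC6 region described above, whose log2 change was -1.72 (SE 0.59). The 4 overlapping HDAC8 start peaks had changes of -1.04 to -1.08, with adjusted p from 0.29 to 0.30, and the first-10% region of CHD7, with 1 read in NC IN, had adjusted p = 0.30. For KDM5C (inner region) the change was -0.10 (SE 0.20), for CHD4 0.05 (SE 0.13) and for SMARCA4 0.20 (SE 0.17), none of which passed. In the 50% of peaks with the highest deposited fold 1 member passed, in SMARCD3 (chr7:151238622-151239176, adjusted p = 0.036), where KD IN had 0 reads. That region lies on the plus strand over CHPF2 and opposite to SMARCD3, with 28 reads from NC input and 14 from each IP group. The authors' deposited table listed 0 of the 170 members at adjusted p under 0.05 for its own change in enrichment, beside 78 of 9958 regions (0.783%), and the lowest value among the members in that table was 0.06, for the same SMARCD3 region.

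Input libraries measure the RNA itself. In a bulk culture, fewer cells of a kind and less RNA per cell cannot be told apart. In KD IN, 8 member regions of 5 genes were higher and 25 regions of 13 genes lower than in NC IN, so 33 of 95 (34.7%) passed, beside 39.8% of all tested regions (17.9% higher and 21.9% lower). The median log2 was -0.31 for the members and -0.01 for all tested regions. The libraries did not overlap in 37 of the 95, beside 44.8% of all. As given above, HEK293 markers were higher in NC IN and monocyte markers in KD IN (11 of 16 tested monocyte marker regions rose and 1 fell), and the part of this in the input results was not tested.

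SWI/SNF subunits and ARID genes had 11 of 23 regions lower in KD IN and 1 higher (52.2% called, beside 39.8% of all tested regions). The 11 lower regions came from 6 genes, and some of them, as in SMARCE1, overlap and share reads. SMARCE1 measured 2700, 2840 and 2840 CPM in NC IN and 2060, 1870 and 1730 CPM in KD IN, without overlap (1.48-fold lower, log2 -0.56, SE 0.10, adjusted p = 7.5e-05). The 5′ region of SMARCC1, which encodes the core subunit BAF155 (chr3:47781647-47782106), measured 44.0, 53.1 and 38.1 CPM in NC IN and 17.3, 16.3 and 26.1 CPM in KD IN (log2 -1.18, SE 0.32, adjusted p = 0.0045). SMARCA4 was lower by -0.60 in an inner region (chr19:11034171-11034945, SE 0.16, adjusted p = 0.0035) and by -0.36 in its 3′ region. The 3′ call of SMARCA4 (adjusted p = 0.017) was lost when any 1 NC IN library, or KD IN replicate 1 or 2, was left out (-0.34 to -0.23, adjusted p from 0.052 to 0.18). SMARCC2, which encodes BAF170, passed narrowly (chr12:56162896-56163047, -1.34, adjusted p = 0.046) and did not pass in 11 of 12 fits that each left out 1 library (-1.38 to -1.0, adjusted p from 0.053 to 0.17). It was -1.98 without KD IN replicate 3.

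ARID3B and SMARCD3 had the lowest KD input values relative to NC. The ARID3B 3′ region (chr15:74596875-74596995) measured 13.6, 19.0 and 37.0 CPM in NC IN and 0, 1.91 and 6.52 CPM in KD IN (8.22-fold lower, log2 -3.04, SE 0.72, adjusted p = 0.0015). Without KD IN replicate 1 its value was -2.40 and without KD IN replicate 3 it was -4.37. A region on the strand opposite to SMARCD3 (chr7:151240470-151240591) measured 13.6, 10.1 and 16.2 CPM in NC IN and 4.06, 0.956 and 0 CPM in KD IN (log2 -2.91, SE 0.80, adjusted p = 0.0052), with -4.43 without KD IN replicate 1 and -2.32 without KD IN replicate 3. ARID5B, a DNA-binding partner of the demethylase PHF2, was the SMARC and ARID region that rose: over chr10:62049361-62049422 it measured 0, 0 and 4.62 CPM in NC IN and 14.2, 11.5 and 15.2 CPM in KD IN. Its log2 was 3.07 (SE 0.91, adjusted p = 0.0088), and 7.27 without NC IN replicate 3, the only NC input library with reads there. ARID3B and this SMARCD3 region passed the read filter through NC libraries, and ARID5B through KD IN, the groups where they are high. The size of these differences was thus partly fixed in advance and is no separate evidence.

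CHD regions were lower in 8 of 20 cases and higher in 1 (45.0% called, beside 39.8% of all tested regions). The 8 lower regions lay in 4 separate places, 2 of them in CHD4, and the higher one was the first-10% region of CHD7 with its 1 read in NC IN (adjusted p = 0.04), a call lost without NC IN replicate 1 or 2 or KD IN replicate 2 (log2 2.55 to 3.04, adjusted p from 0.099 to 0.2). The region of CHD4 nearer its start (chr12:6602011-6602473) measured 1460, 1450 and 1470 CPM in NC IN and 1070, 1050 and 992 CPM in KD IN (log2 -0.49, adjusted p = 0.0004), while another region of CHD4 (chr12:6599969-6600324) had 0.08 (adjusted p = 0.67). Among demethylases 4 of 14 were lower, from 2 genes, and 2 were higher, from 1 gene (42.9% called). The KDM5C start region measured 302, 255 and 262 CPM in NC IN and 190, 170 and 183 CPM in KD IN (1.51-fold lower, log2 -0.60, SE 0.13, adjusted p = 0.00069). KDM5A was lower by -0.84 (adjusted p = 0.0039), a call lost without NC IN replicate 3 (-0.50, adjusted p = 0.091). KDM6B, a demethylase known for its induction in activated macrophages, rose: its inner region (chr17:7844211-7844332) measured 3.14, 3.79 and 11.6 CPM in NC IN and 25.4, 22.0 and 25 CPM in KD IN (log2 1.96, SE 0.52, adjusted p = 0.0037, and 2.83 without NC IN replicate 3).

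In the remaining families, 3 of 12 deacetylase regions passed in input, 1 of 16 methyltransferase regions, 2 of 8 BRD regions and 0 of 2 KAT regions. The HDAC8 3′ region was lower in KD, at 36.7, 44.2 and 39.3 CPM in NC IN and 8.12, 19.1 and 12 CPM in KD IN (3.03-fold, log2 -1.60, SE 0.42, adjusted p = 0.0034). Its start region had -0.40 (adjusted p = 0.34). KMT5A, which methylates a lysine of histone H4, was lower (chr12:123389505-123390053, log2 -1.43, adjusted p = 0.0068). HDAC7 was higher (log2 0.54, adjusted p = 0.027), a call lost without NC IN replicate 1 or KD IN replicate 1 or 2 (0.50 to 0.54, adjusted p from 0.053 to 0.075). BRD10 was higher near its start (chr9:6007581-6007792, log2 0.74, adjusted p = 0.0084).

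**Figure D4:**
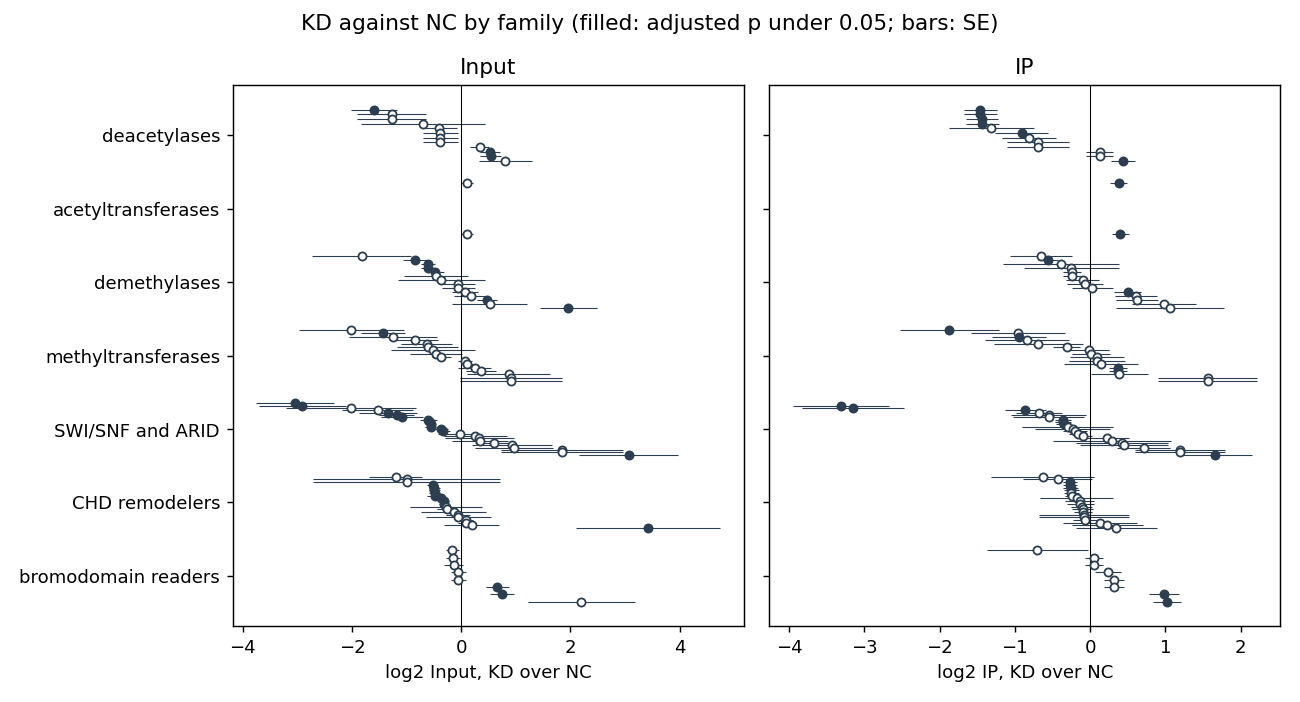
Log2 KD over NC in input (left) and in IP (right) for each tested member region with its SE, grouped by family; filled points passed adjusted p under 0.05. The SMARCD3 region with 0 reads in KD IP is left out of the right panel. More filled points lie left of 0 than right of it in both panels, most of them in the SWI/SNF, ARID and CHD families for input.

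In the IP libraries, 9 member regions of 6 genes were higher in KD and 19 regions of 10 genes lower, so 28 of 95 (29.5%) passed, beside 41.0% of all tested regions (20.9% higher and 20.1% lower). Without KD IP replicate 3 the number called was 18. Medians were -0.11 for members and 0.05 for all regions, and libraries did not overlap in 44 of 95, beside 57.9% of all. IP levels carry the difference in RNA as well as any difference in m7G, and the marker lists moved here too: 20 of 22 HEK293 marker regions were lower in KD IP and 10 of 16 monocyte marker regions higher, and their part was not tested. HDAC8 fell at its start region by a factor of 2.71 (log2 -1.44, SE 0.21, adjusted p = 6.2e-06) with no overlap between the 3 NC IP and 3 KD IP libraries. The inner KDM5C region fell as well (log2 -0.56, SE 0.13, adjusted p = 0.0013). ARID3B had -3.31 (adjusted p = 0.00016, and -4.06 without KD IP replicate 1). As said for input, it passed the read filter through NC libraries. A SMARCD3 region (chr7:151240536-151240627, minus strand) held 46 NC IP reads against 0 from KD IP. That is at least 16.6-fold lower against a floor of 3 reads over the group. The region was listed as a KD peak, with a deposited fold of 6.58, although its KD IP counts were 0. With 8 reads in NC IN and 2 in KD IN, it passed the read filter through NC IP. It was not kept in 6 of the 12 fits that each left out 1 library. KMT2E, a methyltransferase-family gene (chr7:105113012-105113223, -1.87, adjusted p = 0.026), lost its call without KD IP replicate 2 or 3 or NC IP replicate 1 (-1.7 to -1.57, adjusted p from 0.1 to 0.12). HDAC6 (-0.91, adjusted p = 0.039) and KMT5A (-0.94, adjusted p = 0.041) were called lower, but both calls were lost without any 1 of the 6 IP libraries (-1.0 to -0.78 with adjusted p from 0.063 to 0.16 for HDAC6, and -1.03 to -0.83 with adjusted p from 0.077 to 0.13 for KMT5A).

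Regions higher in KD IP lay in BRD10, KAT6A, KMT2B, KDM6B, ARID5A and HDAC5. BRD10 (chr9:6007491-6007912) measured 58.3, 51.0 and 48.5 CPM in NC IP and 115, 116 and 88.2 CPM in KD IP (log2 1.02, SE 0.19, adjusted p = 0.00015). KAT6A measured 429, 519 and 487 CPM in NC IP and 686, 633 and 576 CPM in KD IP (log2 0.40, SE 0.11, adjusted p = 0.0043). In both genes every KD IP library was above every NC IP library. KMT2B (0.37, adjusted p = 0.012) lost its call without KD IP replicate 1 or NC IP replicate 2 (0.29 to 0.31, adjusted p from 0.068 to 0.093). KDM6B (0.50, adjusted p = 0.026) lost it without KD IP replicate 2 or NC IP replicate 1 (0.33 to 0.38, adjusted p from 0.14 to 0.20), and with DESeq2 (adjusted p = 0.079). ARID5A (chr2:96549339-96549430, 1.66, adjusted p = 0.0081) lost it without NC IP replicate 1 (1.18, adjusted p = 0.062). HDAC5 (chr17:44087414-44088405, 0.44, adjusted p = 0.032) lost it when 1 of 6 libraries was left out, these being IP replicates 1 and 3 of KD, IP replicates 2 and 3 of NC, and input replicates 1 and 2 of NC (0.34 to 0.43, adjusted p from 0.05 to 0.16). DESeq2 gave a different split in IP, with 7 member regions higher and 26 lower.

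The peak sets named for NC and KD held 81 and 89 member peaks. Of the NC peaks 35 (43.2%, exact 95% interval 32.2 to 54.7) overlapped a KD peak by at least 1 base, and of the KD peaks 36 (40.4%, 30.2 to 51.4) overlapped an NC peak, beside 39.3% and 39.0% over all peaks. By gene, 34 had peaks in both sets, 18 in NC alone and 11 in KD alone. A peak listed in 1 set alone did not mean different reads: the ARID1A start peak was listed for NC alone, and its enrichment change was 0.25 (SE 0.49, adjusted p = 0.89). Of the member peaks 27.1% lay in the first 10% of the gene body and 36.5% in the last, beside 33.4% and 28.4% of all peaks. Median peak length was 182 bases for members and for all peaks.

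Other genes of the same pathways were read from lists of chromatin genes outside the member families. Of 30 HDAC corepressor partners and sirtuins, 17 had a region, and in NC 7 of 22 tested regions were higher in IP and 7 lower. Of 34 other acetyltransferases and partners, 18 had a region, with 1 of 13 higher and 2 lower. Of 44 other writers and erasers of methylation, 25 had a region, with 5 of 29 higher and 2 lower, and of 55 other remodelers and readers, 33 had a region, with 13 of 54 higher and 24 lower. In input, KD against NC gave 1 higher and 4 lower, 2 and 2, 5 and 6, and 4 and 11 in the same order of lists. For IP over input in NC the shares called were 63.6%, 23.1%, 24.1% and 68.5%, beside 46.7% of all tested regions. For input they were 22.7%, 30.8%, 37.9% and 27.8%, beside 39.8%. RBBP7, a histone-binding subunit shared by NuRD and other complexes, was 2.41-fold lower in KD IN (log2 -1.27, SE 0.12, adjusted p = 3.2e-09). CECR2, a remodeler partner, was 12.9-fold lower in KD IN (log2 -3.69, SE 0.27, adjusted p = 4.2e-11). JARID2, of the Polycomb repressive group, was 2.08-fold higher in KD IN (log2 1.06, SE 0.24, adjusted p = 0.0011). BAZ1B, a bromodomain partner of ISWI, stood below input in NC (log2 -1.08, SE 0.10, adjusted p = 3.3e-09).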

How the data were processed

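Input and IP libraries of NC and KD, 3 per group, made 12 in all. Per the submitters' processing notes, fastp 0.23.4 and the GRCh38 build were used; the aligner, peak caller and counter are not given in the sources used here. The authors deposited raw read counts per peak and library. They also deposited for each peak a fold enrichment, which is a ratio of IP over input, with p-values and adjusted p-values, and a log2 change in enrichment with its p-values. Deposited peaks were matched to RefSeq gene bodies whatever the strand; 12 count columns were used.

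Of all 9958 regions, filterByExpr kept 5113 (count of at least 10, total of at least 15). The model was that of edgeR 4.0.16 (R 4.3.3), with TMM scaling, 4 group means, a two-sided quasi-likelihood test (8 residual degrees of freedom) and Benjamini-Hochberg adjustment over all 5113 at 0.05. CPM are TMM-scaled over reads in peaks, so IP over input is relative to the average tested region; sequencing depth is unknown. The code was tested on simulated counts. Intervals are exact at 95% and, like the floor of 3 reads, describe counting error alone, because no molecular identifiers separate copies of one molecule.

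For each comparison, called regions without overlap between the groups' libraries were named, 1 per gene, the 8 highest and 8 lowest, plus the 6 smallest p for the enrichment change, the highest CPM per family and 2 regions per list. Other members were chosen after their values were seen. Members, families, pathway lists and markers were chosen with earlier results of these data known. Alternatives were DESeq2 1.42.0, library size alone, other filters and thresholds, replicate blocks, other peak subsets and leaving out each library.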

Additional observations from a re-analysis of the deposited data

How the results depend on the processing

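In the 50% of peaks with the highest deposited fold, 23 member regions were tested instead of 95. Of these, 8 were called for IP over input in NC, 1 in KD, 1 for the enrichment change, 3 for input and 3 for IP. In that subset 31.7% of member NC peaks were shared, and 35.8% of member peaks lay in the first 10% of the gene body. With 1 region per cluster of overlapping regions the calls were 31, 28, 0, 18 and 17, from 62 tested member regions. At an adjusted p threshold of 0.01, input gave 21 and IP 16. Leaving out each library gave 45 to 58 for NC, 40 to 53 for KD, 0 to 0 for the enrichment change, 24 to 33 for input and 18 to 32 for IP. Same-numbered libraries correlated at -0.0877 to 0.0677 in their deviations from group means. Counting noise in regions of few reads also draws such values toward 0, so they cannot decide whether the numbers pair libraries. With the replicate block, calls were 49, 49, 0, 29 and 24. DESeq2 gave 54, 52, 0, 35 and 33. Of 1137 fits of the 63 named results under alternatives, 1040 kept direction and side of the threshold, 97 lost the call and 0 reversed. Fits that did not keep the region are not among the 1137. Counted among them are fits that left out a library outside the comparison, and enrichment-change results, which had no call to lose. The share kept is therefore no measure of stability. The cause of these changes was not tested. In the subsets fewer regions were tested, and library size and TMM scaling were computed anew on the subset alone. In the high-fold subset, IP over input is thus relative to the average high-fold peak. With few input reads, regions such as CHD9NB, CHD7 and ARID1B have wide intervals. Medians with a region of 0 reads at its bound stayed at -0.09, -0.07, -0.31 and -0.11.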
